A study of Mus musculus with 24 samples.

Results

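The genes described here are 10 of the receptors and enzymes through which mouse macrophages sense extracellular nucleotides and adenosine: the ATP-gated channels P2rx4 and P2rx7, the G protein-coupled nucleotide receptors P2ry2, P2ry6, P2ry12, P2ry13 and P2ry14, the ectonucleotidase Entpd1 (CD39), and the adenosine receptors Adora2a and Adora2b. They were taken by name from the 56941 gene IDs of the deposited count table, and all 10 were among the 14757 genes that passed the filter on low counts. The libraries came from bone marrow-derived macrophages, cells grown from marrow in medium conditioned by L929 cells, of 3 genotypes: wild type (WT), HDAC9 knockout (KO), and HDAC9 deltaCIS (dCIS), in which a cis-regulatory element named for HDAC9 is deleted. Each genotype was sequenced without treatment and following exposure to lipopolysaccharide (LPS), the TLR4 ligand of Gram-negative bacteria, at 100 ng/ml over 6 hours, with 4 libraries in each of the 6 groups and 24 in all. Growth factor-conditioned medium was withdrawn before the stimulation, which took place without fetal calf serum. The labels name neither the strain, age and number of the mice nor whether replicate libraries stem from different mice or cultures, so p-values measure the spread between these libraries only, which may be technical.

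Damaged and activated cells release ATP, UTP, ADP, UDP and UDP-glucose. P2X receptors are channels that open on ATP, and P2X7, which needs high ATP, is the best known trigger of potassium efflux and NLRP3 inflammasome activation in macrophages. P2Y receptors signal through G proteins: P2Y2 responds to ATP and UTP, P2Y6 to UDP, P2Y12 and P2Y13 to ADP, and P2Y14 to UDP-glucose. CD39 removes phosphates from ATP and ADP, CD73 (Nt5e) turns the AMP that remains into adenosine, and the receptors encoded by Adora2a and Adora2b answer adenosine by raising cAMP, which restrains inflammatory output.

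Total counts per library lay between 14636058 and 19181707. Hdac9 itself averaged 11.2 and 12.3 CPM (counts scaled to a library of 1000000) in WT untreated and after LPS, 1.04 and 0.302 in KO, and 15.6 and 14.7 in dCIS. The 8 macrophage markers checked, among them Csf1r, Adgre1 and Cd68, summed to between 15530 and 26700 CPM in every library. Markers of lymphocytes summed to at most 0.699 CPM and of mast cells to at most 0.167. The 6 neutrophil markers summed to 1.07 to 2.37 CPM in untreated WT and 3.18 to 4.31 after LPS, 0.968 to 3.21 and 2.79 to 4.67 in KO, and 1.22 to 2.23 and 2.55 to 3.52 in dCIS. The 6 dendritic cell markers summed to at most 1.45 CPM untreated and 5.03 after LPS, and the 6 fibroblast and endothelial markers to at most 2.72 and 14.9; these 3 sums were higher after LPS, with overlap for neutrophil markers in KO, and their part in the results was not tested. Pf4 gave nearly all of the platelet marker sum, which lay between 435 and 461 CPM in untreated WT and between 552 and 643 after LPS, between 422 and 569 and then 612 and 807 in KO, and overlapped between treatments in dCIS; its part was not tested either. Sall1, a microglial factor, was at 0 in every group but untreated dCIS. In such bulk libraries fewer cells of a type and less RNA per cell cannot be told apart. Library 2 of untreated KO stood apart for 5 of the 10 genes, and libraries 3 and 4 of dCIS after LPS had counts for 17628 and 15997 genes against at least 20458 in each other library; where a value described below moved by over 1.5 times or changed its call without them, both values are given. Levels are CPM on library sizes scaled by the TMM method, whose factors were 1.29 to 1.36 in untreated libraries and 0.694 to 0.826 after LPS. On library totals without that scaling, the median gene lay 0.80 lower after LPS in WT and KO and 0.81 lower in dCIS on the log2 scale, so every response to LPS below is relative to the typical gene.

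**Figure D1:**
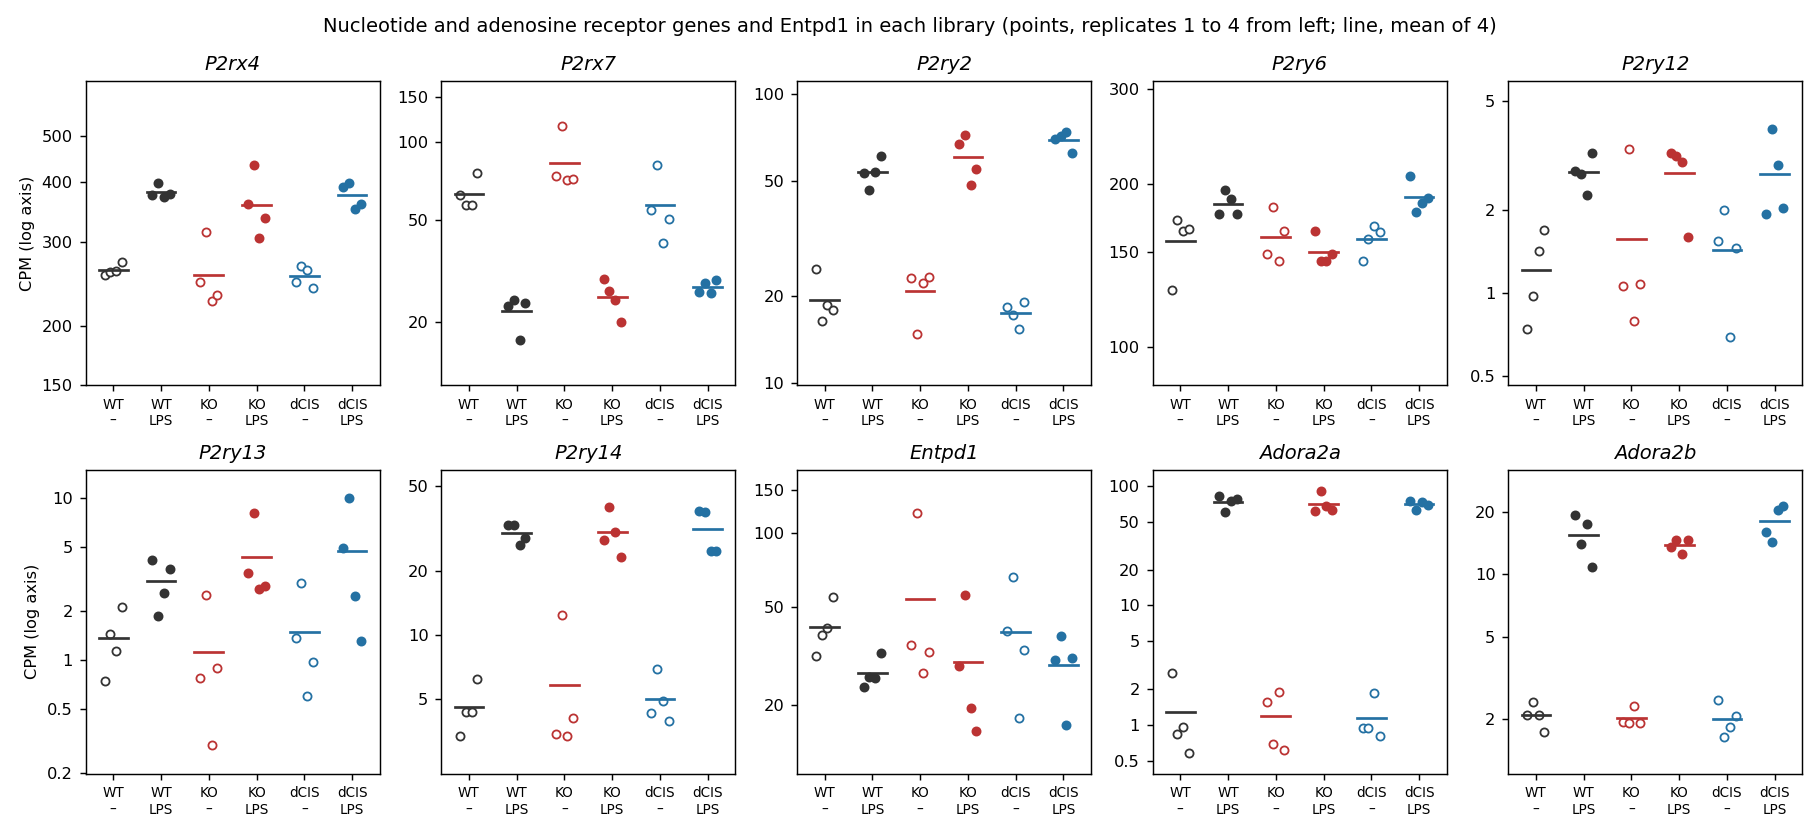
Level of each of the 10 genes in each of the 24 libraries, in CPM on a log axis that differs between panels; open points are untreated libraries, filled points are LPS libraries, points run from replicate 1 to 4 and lines are means of 4. Adora2a rises from at most 2.69 CPM to at least 60.4 CPM in all genotypes and P2rx7 falls, while the rise of P2rx4 in each genotype and of P2ry6 in WT and dCIS seen here turn to lower values on unscaled library totals.

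The first question was how LPS changed these genes in each genotype. In WT, 7 of the 10 genes were called higher and 1 lower after LPS at an adjusted p under 0.05 (edgeR's quasi-likelihood test), against 61.4% of all 14757 genes called in either direction, 30.4% higher and 31% lower. In KO, 6 were called higher and 1 lower, where 61.6% of all genes were called, 30.9% higher and 30.7% lower. In dCIS, 8 were called higher and 1 lower, where 64.7% of all genes were called, 31.3% higher and 33.3% lower. The share of the 10 genes called lay above that of all genes in each genotype. The 10 genes were chosen by name with earlier results of these data known, so this is a description only. Their median log2 fold change was 1.17 in WT, 1.16 in KO and 1.28 in dCIS, beside 0.003, 0.02 and -0.05 for all genes. Adora2a, Adora2b, P2ry2, P2ry14 and P2rx4 were called higher in all 3 genotypes, as were 3823 genes (25.9%) of the table, and P2rx7 was called lower in all 3, as were 3711 (25.1%). On unscaled library totals P2rx4 was not higher in any genotype, and the other 5 kept their direction and call. In WT the 4 libraries of each treatment did not overlap for 8 of the 10 genes, in KO for 6 and in dCIS for 7, where 61.8%, 59% and 51.4% of all genes did not.

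**Figure D2:**
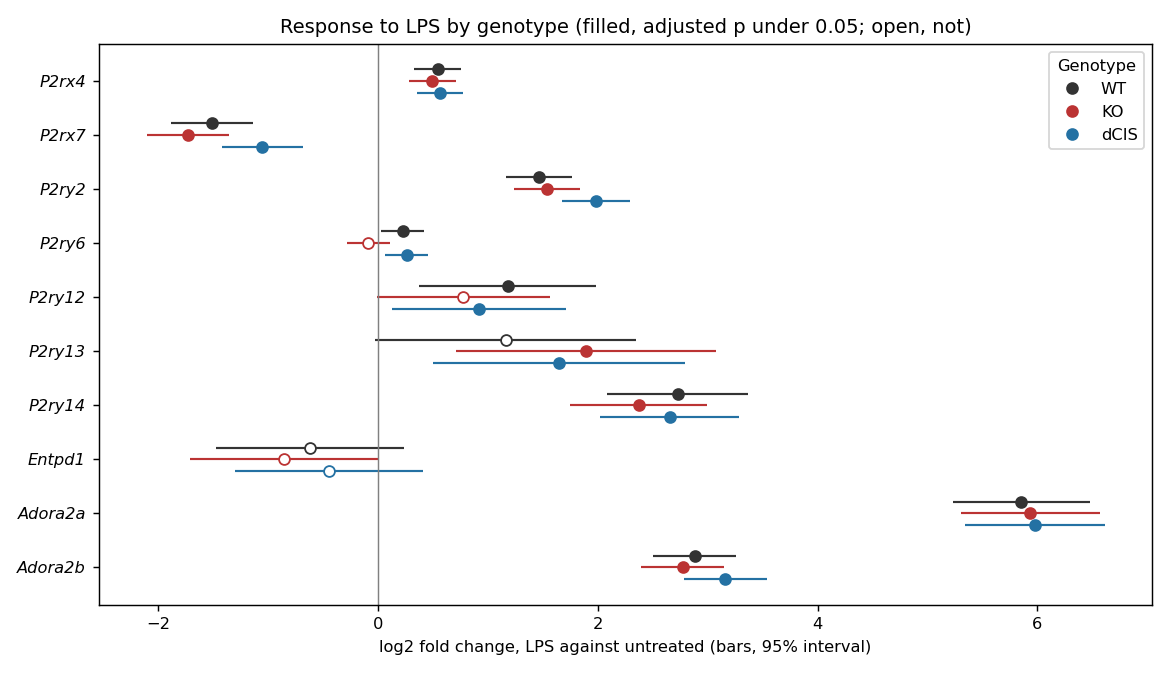
Log2 fold change of each gene after LPS in WT, KO and dCIS with its 95% interval from the edgeR fit under TMM scaling; filled points have an adjusted p under 0.05. Adora2a lies between 5.86 and 5.98, P2rx7 is the only called fall, and Entpd1 lies below 0 with wide intervals; the points of P2rx4 and P2ry6 right of 0 move left of it on unscaled library totals.

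Both adenosine receptor genes rose. Adora2a, the high-affinity receptor that is coupled to Gs, stood at 2.69, 0.838, 0.953 and 0.582 CPM in the 4 untreated WT libraries and at 83.3, 60.4, 75.1 and 77.9 CPM after LPS. In KO it went from 1.55, 0.683, 1.88 and 0.61 CPM to 62.2, 91.7, 68.9 and 62.7 CPM. In dCIS it went from 0.94, 0.937, 1.83 and 0.798 CPM to 75.3, 63.6, 74.1 and 70.3 CPM. The lowest LPS library was above the highest untreated library by a wide margin in each genotype, and the first untreated WT library was the highest of the 12 untreated ones. The log2 fold change was 5.86 (SE 0.305, adjusted p = 3.41e-15) in WT, a 57.9-fold rise. It was 5.94 in KO (SE 0.308, adjusted p = 3.08e-15), and dCIS gave 5.98 (SE 0.309, adjusted p = 3.07e-15). Between 12 and 58 reads per untreated library stand behind these folds, so their size is less certain than their direction.

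Adora2b, the gene of the low-affinity adenosine receptor, stood at 2.09, 2.42, 2.1 and 1.75 CPM in untreated WT and at 19.5, 14.1, 17.5 and 10.8 CPM after LPS. In KO the 4 libraries went from 1.94, 1.93, 2.33 and 1.93 CPM to 13.6, 14.7, 12.6 and 14.7 CPM, and in dCIS from 2.49, 1.64, 1.83 and 2.08 CPM to 16.1, 14.4, 20.4 and 21.3 CPM. No LPS library overlapped the untreated ones, and the LPS libraries of KO were the tightest set, with an SD of 0.998 CPM against 3.81 in WT and 3.36 in dCIS. The rise was 7.37-fold in WT (log2 2.88, SE 0.183, adjusted p = 2.2e-13), 6.85-fold in KO (log2 2.78, SE 0.184, adjusted p = 5.47e-13) and 8.94-fold in dCIS (log2 3.16, SE 0.184, adjusted p = 3.52e-14).

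RefSeq (GRCm38.p6, a build older than the mm39 of the counts) gave start sites for 8 of the 10 genes, 14 sites in all, and none for P2ry6 and Adora2a. In the 250 bases before each site both strands were searched for the letters of 5 motifs: NF-kB (GGG, any 2 bases, TT, any base, CC), TGANTCA (AP-1), TGACGTCA (the cAMP response element), the interferon response element (GAAA, any 2 bases, GAAA) and GAGGAA (the core bound by PU.1, the factor that defines macrophages). Of 32841 promoters in the table, 4.11% held the NF-kB letters, 6.75% AP-1, 1.55% the cAMP element, 2.98% the interferon element and 23.3% the PU.1 core; none of the 5 motifs contains another. None of the 14 sites held the NF-kB, cAMP or interferon letters, which says only that these letters are not in these windows. The promoter of Adora2b, shown because it is the one strongly induced adenosine receptor with an entry, lies at chr11:62248734-62248983 on the plus strand, and has a GC content of 69.6% against a median of 52.4% over all promoters and no match to the 5 motifs.
Adora2b: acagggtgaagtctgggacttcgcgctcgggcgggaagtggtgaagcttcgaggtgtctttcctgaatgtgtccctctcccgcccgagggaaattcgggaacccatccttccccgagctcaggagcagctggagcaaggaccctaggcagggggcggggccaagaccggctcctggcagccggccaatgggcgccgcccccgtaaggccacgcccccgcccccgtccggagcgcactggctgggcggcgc

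The 2 ATP-gated channels moved in opposite directions under TMM scaling. P2rx7, the channel that licenses inflammasome activation, stood at 62.2, 56.8, 56.9 and 75.8 CPM in untreated WT and at 23.1, 24.5, 17.1 and 23.8 CPM after LPS. In KO it went from 73.6, 115, 71.6 and 71.9 CPM to 29.4, 26.4, 24.4 and 20 CPM. In dCIS it went from 54.7, 81.6, 40.7 and 50.3 CPM to 26.1, 28.4, 26 and 29 CPM. Every LPS library was below every untreated library of its genotype, and library 2 was the highest untreated one in KO and dCIS. The level was 2.85-fold lower in WT (log2 -1.51, SE 0.182, adjusted p = 5.88e-08), 3.32-fold lower in KO (log2 -1.73, SE 0.182, adjusted p = 5.15e-09) and 2.08-fold lower in dCIS (log2 -1.05, SE 0.179, adjusted p = 1.23e-05).

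P2rx4, a channel found largely on lysosomes, was steady in untreated WT at 255, 259, 260 and 272 CPM and stood at 376, 398, 373 and 378 CPM after LPS. KO went from 247, 315, 225 and 232 CPM to 360, 435, 305 and 336 CPM, and dCIS from 247, 267, 262 and 239 CPM to 392, 399, 352 and 360 CPM. The groups were apart in WT and dCIS and overlapped in KO, where the second untreated library exceeded the third LPS library. The fold was 1.46 in WT (log2 0.55, SE 0.104, adjusted p = 5.27e-05), 1.41 in KO (log2 0.49, SE 0.104, adjusted p = 0.00017) and 1.48 in dCIS (log2 0.57, SE 0.104, adjusted p = 3.31e-05). This direction depends on the scaling: on unscaled library totals P2rx4 was lower after LPS, by log2 -0.26 in WT (adjusted p = 0.0141), -0.33 in KO (adjusted p = 0.00263) and -0.20 in dCIS (adjusted p = 0.0573), so it rose relative to the typical gene and not as a share of all reads.

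P2rx7 and P2rx4 are neighbours on chromosome 5, on the same strand, with only the non-coding gene Gm10064 between them in the GRCm38 annotation. Their promoters are shown side by side since the pair moved apart under LPS. The first P2rx7 start site (chr5:122643677-122643926, plus strand) holds an AP-1 match, in capitals, 249 bases before the start, and the P2rx4 promoter (chr5:122707294-122707543, plus strand) holds none of the 5 motifs.
P2rx7: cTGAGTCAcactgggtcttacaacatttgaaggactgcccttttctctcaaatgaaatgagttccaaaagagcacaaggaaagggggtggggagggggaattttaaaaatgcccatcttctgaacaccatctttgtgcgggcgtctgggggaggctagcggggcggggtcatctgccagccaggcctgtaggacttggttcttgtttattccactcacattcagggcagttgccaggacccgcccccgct
P2rx4: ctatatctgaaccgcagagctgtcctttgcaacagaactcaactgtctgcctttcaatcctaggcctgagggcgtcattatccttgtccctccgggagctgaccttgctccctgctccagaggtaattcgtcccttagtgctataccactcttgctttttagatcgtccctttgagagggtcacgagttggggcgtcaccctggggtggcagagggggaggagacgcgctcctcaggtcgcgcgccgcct

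Of the uracil nucleotide receptors, P2ry2 rose in every genotype and P2ry6 moved by much less. P2ry2, the receptor for ATP and UTP that takes part in the recruitment of phagocytes, stood at 24.9, 16.4, 18.7 and 17.9 CPM in untreated WT and 53.4, 46.4, 53.9 and 61 CPM after LPS. In KO it went from 23.1, 14.8, 22.3 and 23.4 CPM to 67.1, 72.3, 48.5 and 54.9 CPM, and in dCIS from 18.4, 17.2, 15.4 and 19.1 CPM to 69.8, 71.4, 73.8 and 62.3 CPM. The groups did not overlap in any genotype, and 4 of 4 dCIS libraries after LPS lay above all 4 WT libraries after LPS. The rise was 2.76-fold in WT (log2 1.46, SE 0.147, adjusted p = 2.22e-09), 2.91-fold in KO (log2 1.54, SE 0.147, adjusted p = 8.45e-10) and 3.96-fold in dCIS (log2 1.98, SE 0.149, adjusted p = 7.17e-12).

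P2ry6, the UDP receptor, stood at 128, 172, 164 and 165 CPM in untreated WT and 176, 196, 188 and 176 CPM after LPS. KO libraries had 149, 182, 144 and 164 CPM untreated and 164, 144, 144 and 149 CPM after LPS, and dCIS libraries 144, 158, 167 and 163 CPM and then 207, 178, 185 and 189 CPM. LPS libraries lay above untreated ones without overlap in WT and dCIS and overlapped them in KO. The log2 fold change was 0.23 in WT (SE 0.0949, adjusted p = 0.0409), -0.09 in KO (SE 0.0951, adjusted p = 0.432; -0.03 without untreated library 2 and -0.005 without both libraries numbered 2), while dCIS had 0.26 (SE 0.0949, adjusted p = 0.0186). Both calls were lost under several alternatives. In WT the adjusted p was 0.0812 with RLE size factors, 0.0948 with DESeq2, 0.0707 with the 2 groups fitted alone, 0.852 without the filter (log2 0.06) and 0.206, 0.112 and 0.0812 without untreated library 1, LPS library 2 and LPS library 3. In dCIS it was 0.546 without the filter, 0.0733 without untreated library 1, 0.112 without untreated library 3 and 0.0745 without LPS library 1. On unscaled library totals P2ry6 was lower after LPS in all 3 genotypes, by log2 -0.58 in WT, -0.91 in KO and -0.50 in dCIS. P2ry6 and P2ry2 lie next to each other on chromosome 7, on the same strand.

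The cluster of P2ry12, P2ry13 and P2ry14 on chromosome 3 was low in untreated cells, and of the 3 genes P2ry14 alone was called higher in every genotype. P2ry14, the receptor for UDP-glucose, stood at 3.34, 4.33, 4.34 and 6.16 CPM in untreated WT and 32.9, 32.9, 26.3 and 28.4 CPM after LPS. In KO it went from 3.39, 12.4, 3.32 and 4.04 CPM to 27.8, 39.9, 30.6 and 23.2 CPM, and in dCIS from 4.28, 6.89, 4.86 and 3.9 CPM to 38.1, 37.8, 24.8 and 24.9 CPM. No group overlapped its untreated counterpart, and library 2 of KO was the highest of its group before and after LPS. The rise was 6.63-fold in WT (log2 2.73, SE 0.312, adjusted p = 2.3e-08), 5.18-fold in KO (log2 2.37, SE 0.304, adjusted p = 1.67e-07) and 6.29-fold in dCIS (log2 2.65, SE 0.309, adjusted p = 3.22e-08). Without both KO libraries numbered 2 the KO value was 2.92.

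P2ry12, the ADP receptor best known from platelets and microglia, stood at 0.743, 0.978, 1.43 and 1.7 CPM in untreated WT and 2.78, 2.72, 2.27 and 3.23 CPM after LPS, from 16 to 40 reads a library. It rose 2.27-fold in WT (log2 1.18, SE 0.39, adjusted p = 0.0107), with no overlap. KO libraries had 1.07, 3.34, 0.792 and 1.08 CPM untreated and 3.25, 3.14, 3.01 and 1.59 CPM after LPS. There the groups overlapped and the log2 difference of 0.78 (SE 0.382, adjusted p = 0.081) was not called, whereas it was 1.47 (adjusted p = 0.000861) without untreated library 2, 1.40 (adjusted p = 0.00296) without both libraries numbered 2 and 0.97 (adjusted p = 0.0409) without LPS library 4. In dCIS, from 1.55, 2.02, 0.694 and 1.46 CPM to 1.95, 3.95, 2.93 and 2.04 CPM, the groups overlapped and the log2 rise of 0.92 (SE 0.384, adjusted p = 0.039) did not last when untreated library 1, 3 or 4 or LPS library 2 or 3 was left out (adjusted p from 0.0568 to 0.193), in DESeq2 (0.0585), with the 2 groups fitted alone (0.0505), or without LPS libraries 3 and 4 together (0.062). On unscaled library totals P2ry12 was called in no genotype and the KO value was -0.046.

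P2ry13, a further ADP receptor, stood at 0.743, 1.44, 1.14 and 2.13 CPM in untreated WT and at 4.17, 1.86, 2.59 and 3.64 CPM after LPS, with overlap (log2 1.16, SE 0.577, adjusted p = 0.0838; 0.00498 with the 2 groups fitted alone and 0.00311 without the filter). KO went from 0.775, 2.53, 0.297 and 0.892 CPM to 3.43, 8.17, 2.76 and 2.87 CPM, apart by a narrow margin, for a rise of log2 1.89 (SE 0.575, adjusted p = 0.00589). In dCIS the libraries went from 1.36, 3, 0.595 and 0.976 CPM to 4.95, 10, 2.49 and 1.31 CPM, with overlap, for a rise of log2 1.65 (SE 0.558, adjusted p = 0.0118). The KO call was lost without LPS library 2 (log2 1.38, adjusted p = 0.0524), and the dCIS call without untreated library 3 (1.27, adjusted p = 0.0578) or LPS library 2 (0.96, adjusted p = 0.14). On unscaled library totals it was called in no genotype.

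Same-numbered libraries of WT, and of KO, deviated together across genes, as described with the methods, and with that number as a block in a fit per genotype P2ry13 was called in WT as well (log2 1.17, adjusted p = 0.0036) and P2ry12 in KO (log2 0.93, adjusted p = 0.0226). The 3 genes all lie inside Med12l, a Mediator subunit gene on the opposite strand, in the GRCm38 annotation. Med12l rose from 0.749 to 3.4 CPM in WT (log2 2.18, SE 0.418, adjusted p = 6.15e-05). In KO it rose from 0.768 to 5.54 CPM and in dCIS it rose from 0.913 to 4.41 CPM. Since the strand setting of the counting is not given in the sources used here, reads of Med12l and of these receptors cannot be told apart, which bears most on P2ry12 and P2ry13, whose levels are of the same size as that of Med12l. P2ry14 has 4 start sites in RefSeq, each with a PU.1 core in the window. The windows chr3:59131329-59131578 and chr3:59131119-59131368 overlap, and their core is the same element, 29 and 239 bases before the start. The 2 sites shown (chr3:59153493-59153742 and chr3:59131329-59131578, minus strand, printed 5′ to 3′ along the gene) each hold an AP-1 match. The matches stand in capitals, 202 and 144 bases before the start. A PU.1 core was also found for P2ry13 and at the second start site of Entpd1. AP-1 letters thus stood in windows of a gene that rose and of P2rx7, which fell.
P2ry14 first site: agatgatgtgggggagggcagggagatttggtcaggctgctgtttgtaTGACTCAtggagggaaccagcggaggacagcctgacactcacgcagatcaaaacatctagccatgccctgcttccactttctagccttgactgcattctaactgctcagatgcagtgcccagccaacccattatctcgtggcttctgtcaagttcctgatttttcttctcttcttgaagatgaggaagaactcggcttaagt
P2ry14 second site: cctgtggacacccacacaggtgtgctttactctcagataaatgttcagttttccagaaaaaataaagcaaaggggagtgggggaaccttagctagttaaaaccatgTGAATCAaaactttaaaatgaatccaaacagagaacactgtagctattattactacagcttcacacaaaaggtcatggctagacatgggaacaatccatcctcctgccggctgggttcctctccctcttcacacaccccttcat

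Entpd1 is the enzyme that degrades ATP and ADP at the cell surface. It was called in no genotype in the TMM-scaled fit of all 24 libraries, which sets library numbers aside. The untreated libraries of each mutant were spread more widely than the treatments differed (SD 44.8 CPM in KO and 20.4 in dCIS). In WT it stood at 31.6, 38.5, 41 and 55 CPM untreated and at 23.7, 25.9, 25.7 and 32.6 CPM after LPS. KO libraries had 34.9, 121, 27 and 32.9 CPM untreated and 28.8, 55.9, 19.4 and 15.7 CPM after LPS, and dCIS libraries 40.1, 66.5, 17.8 and 33.3 CPM and then 30.3, 38.1, 16.6 and 31 CPM. The groups overlapped in each genotype, yet each library was lower after LPS than the untreated library of the same genotype and number. The log2 fold change was -0.62 in WT (SE 0.416, 95% interval -1.48 to 0.23, adjusted p = 0.204), -0.86 in KO (SE 0.415, adjusted p = 0.0768), while dCIS had -0.45 (SE 0.415, adjusted p = 0.356). In WT it was called lower with the 2 groups fitted alone (log2 -0.65, adjusted p = 0.00109). With same-numbered libraries as blocks in a fit per genotype the gene was called lower in WT (log2 -0.61, adjusted p = 0.00038) and in KO (log2 -0.74, adjusted p = 5.09e-05). The block also called it lower in dCIS, whose numbers do not pair by the rule used, with the value given in the last section. The KO value depended on single libraries: it was -1.35 (adjusted p = 0.00927) without LPS library 2 and -0.09 (adjusted p = 0.852) without untreated library 2. It was -1.02, -1.08 and -1.04, each called, without untreated library 1, 3 or 4, and -0.58 (adjusted p = 0.142) without both libraries numbered 2. The dCIS value also moved, to -0.07 (adjusted p = 0.889) without untreated library 2, -0.80 (adjusted p = 0.0974) without untreated library 3, -0.25 (adjusted p = 0.634) without LPS library 3, and -0.21 (adjusted p = 0.753) without LPS libraries 3 and 4. On unscaled library totals Entpd1 was called lower in all 3 genotypes, by log2 -1.43, -1.70 and -1.23.

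**Figure D3:**
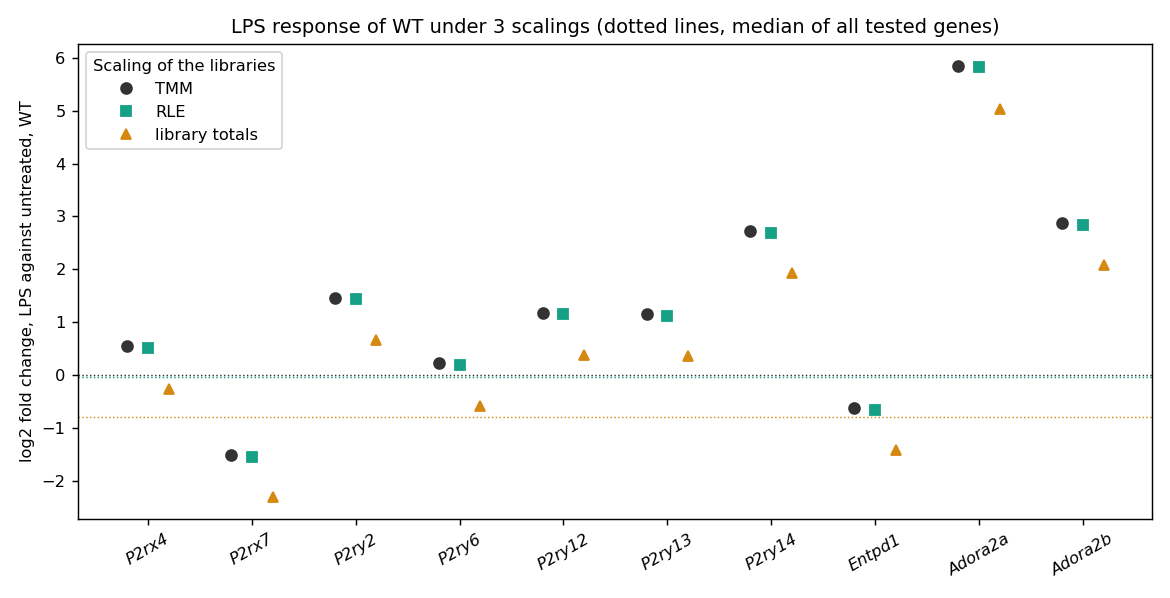
Log2 fold change of each gene after LPS in WT under TMM scaling, RLE size factors and unscaled library totals; dotted lines give the median of all tested genes, which is -0.80 on library totals. TMM and RLE nearly coincide, and on library totals each gene moves down, P2rx4 and P2ry6 crossing 0 to -0.26 and -0.58.

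The second question was whether the genotypes differed. Against WT, untreated KO had 0 of the 10 genes called where 7.31% of all genes were called, and KO after LPS 0 where 2.74% were. Untreated dCIS had 0 called where 0.0542% of all genes were, and dCIS after LPS 0 where 0.258% were. Among the 10 genes, 1, 1, 0 and 1 had an unadjusted p under 0.05 in these 4 comparisons by edgeR. Over all genes 25.2%, 21.2%, 3.61% and 13.1% did. DESeq2 called 0, 1, 0 and 0 of the 10, and 2011, 1080, 16 and 217 of all genes. Libraries of the 2 groups did not overlap for 0, 1, 0 and 2 of the 10 genes, where 21.5%, 18.3%, 2.51% and 6.86% of all genes did not. The same WT libraries serve as controls for KO and dCIS, so the 2 sets of comparisons share samples.

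P2rx7 was the member with the smallest p in untreated KO, at 83.1 ± 21.4 CPM (SD, n = 4) against 62.9 ± 8.92 in WT and 56.8 ± 17.6 in dCIS. The difference from WT was log2 0.40 (95% interval 0.05 to 0.76, adjusted p = 0.145). It was 0.20 (adjusted p = 0.478) without KO library 2, and its adjusted p was 0.0439 without the filter. The difference from dCIS of log2 0.55 (SE 0.173, adjusted p = 0.0259) was the only call among the members in any comparison of genotypes, where 21.3% of all genes were called between untreated KO and dCIS. KO was above dCIS for all 4 numbers, though only 3 of the 4 KO libraries deviated most like the dCIS library of their own number. With the replicate block, which gives each number 1 effect over all 3 genotypes, the difference was 0.56 (adjusted p = 0.00575). The numbers were not shown to pair libraries across genotypes, so the blocked value carries no added weight. With the numbers set aside, the libraries of KO and dCIS overlapped (exact permutation p = 0.114, 2-sided). They overlapped for each of the 10 genes, where 18.7% of all genes did not overlap. Without the block, the call was lost without KO library 2 (log2 0.35, adjusted p = 0.136), without dCIS library 1, 3 or 4 (adjusted p = 0.0629, 0.141 and 0.0733) and with only the 2 groups fitted (adjusted p = 0.111). Without both KO libraries numbered 2, P2rx7 was at 0.35 (adjusted p = 0.139) and 1 gene, P2ry2, was called in its place.

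After LPS, P2ry6 had a lower mean in KO than in both other genotypes, with 150 ± 9.24 CPM (SD, n = 4) against 184 ± 9.54 in WT and 190 ± 12.5 in dCIS, and no KO library reached a library of either. P2ry6 was the 1 gene of the 10 without overlap between KO and dCIS after LPS, where 7.89% of all genes did not overlap. Neither difference was called: log2 -0.29 against WT (95% interval -0.49 to -0.10, adjusted p = 0.0836) and -0.34 against dCIS (95% interval -0.53 to -0.14, adjusted p = 0.06). The exact permutation p was 0.0286 for each, the smallest that 4 against 4 libraries can give. KO against WT passed in DESeq2 (adjusted p = 0.0388) and in the compared groups alone (0.0157). It failed with RLE size factors (0.0967), without the filter (0.241), with the stricter filter (0.0735) and with the replicate block (0.0617). Leaving out any single library also lost it (up to 0.25). KO against dCIS passed in DESeq2 (adjusted p = 0.0132), on unscaled totals (0.0177), with the stricter filter (0.048) and without dCIS library 2 (0.0278). It passed with the replicate block (log2 -0.34, adjusted p = 0.0402), though numbers were not shown to pair genotypes. It failed with RLE size factors (0.0513), without the filter (0.0883), in the compared groups alone (0.0842) and without dCIS libraries 3 and 4 (0.287). KO against dCIS after LPS had 0 of the 10 genes called in edgeR where 2.18% of all genes were. DESeq2 called 1 of the 10 and 653 of all genes. In edgeR 2 of the 10 had an unadjusted p under 0.05, where 20.2% of all genes did.

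No difference of the 10 genes between genotypes after LPS was called in the fit of all 24 libraries. P2ry2 stood at 69.3 ± 4.96 CPM (SD, n = 4) in dCIS and 53.7 ± 6 in WT, without overlap (log2 0.37, 95% interval 0.08 to 0.66, adjusted p = 0.256). P2rx7 stood at 27.4 ± 1.55 CPM in dCIS and 22.1 ± 3.39 in WT, also without overlap (log2 0.31, 95% interval -0.07 to 0.69, adjusted p = 0.496), and the difference was 0.20 (adjusted p = 0.797) without WT library 3. The log2 difference of Adora2b between KO and dCIS was -0.38 (95% interval -0.71 to -0.04, adjusted p = 0.194), and -0.13 (adjusted p = 0.944) without dCIS libraries 3 and 4. Adora2a was close in level after LPS in the 3 genotypes, at 74.2 ± 9.78, 71.4 ± 13.9 and 70.8 ± 5.3 CPM in WT, KO and dCIS, and the 95% interval of KO against WT, -0.52 to 0.40, leaves room for a change of up to that size. The intervals of P2ry13 reached from -0.65 to 1.62 in KO and -0.51 to 1.74 in dCIS, so a difference within those bounds was not detectable for it.

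The difference of the LPS response from that of WT was called for 0 of the 10 genes in KO and in dCIS by edgeR, where 0.0203% and 0% of all genes were called, and DESeq2 also called 0 in each. Over all genes DESeq2 called 5 in KO and 9 in dCIS. In each, 1 of the 10 had an unadjusted p under 0.05 by edgeR, where 1.75% and 7.85% of all genes did. In KO this was P2ry6, whose response differed by log2 -0.32 (SE 0.134, adjusted p = 1), and in dCIS it was P2ry2, whose response differed by 0.52 (SE 0.205, adjusted p = 0.574). For P2rx7 in dCIS the difference in response was 0.45 (95% interval -0.07 to 0.97, adjusted p = 0.673). The genotypes are therefore not shown to differ in the response of any of the 10 genes.

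**Figure D4:**
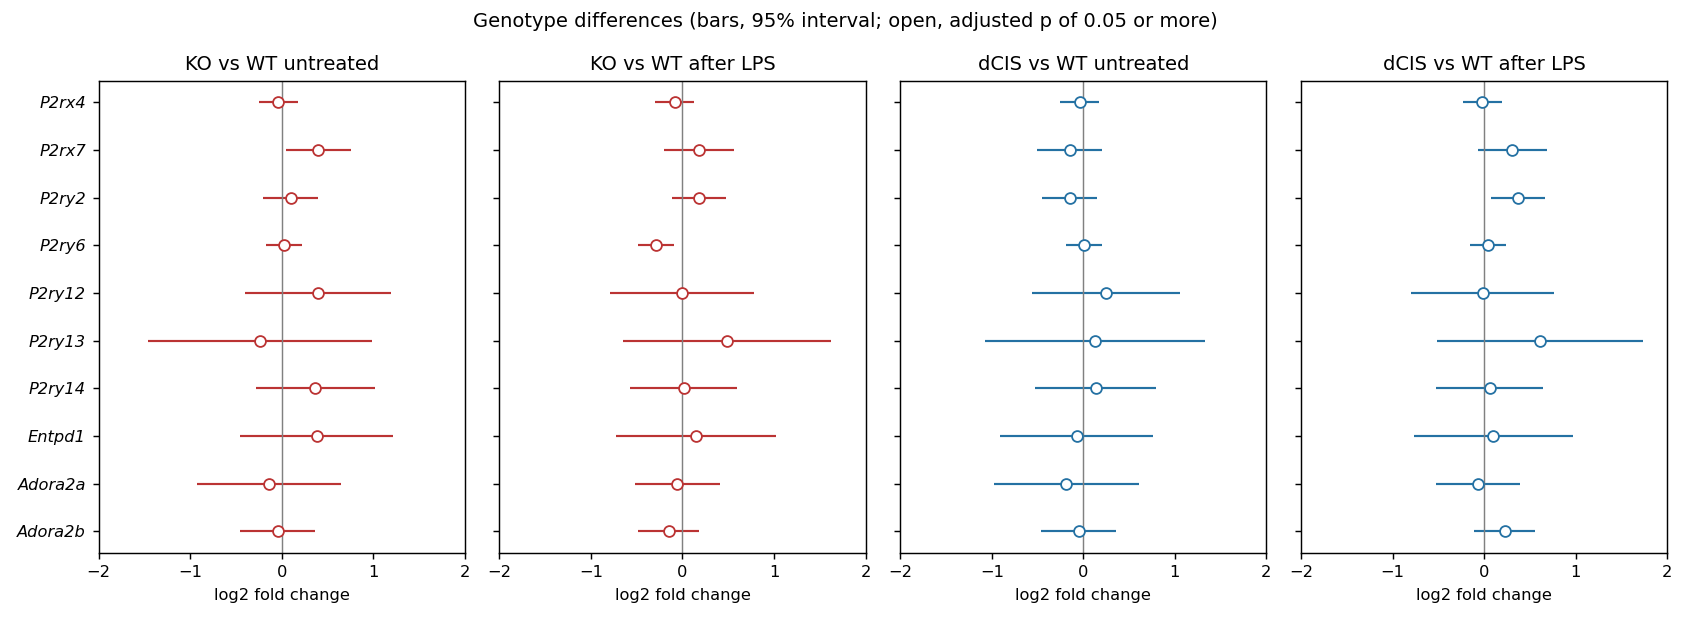
Log2 fold change of each gene in KO and dCIS against WT, untreated and after LPS, with 95% intervals; the WT libraries are shared between KO and dCIS. No point has an adjusted p under 0.05, P2ry6 in KO after LPS lies at -0.29, and P2ry13 and Entpd1 have the widest intervals.

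Spread between libraries of 1 group was itself patterned. The library with the highest Entpd1 carried the same number before and after LPS in each genotype: number 4 in WT, number 2 in KO and number 2 in dCIS. The highest library kept its number in all 3 genotypes for 6.65% of all genes, and for 34.4%, 35.9% and 39.7% in WT, KO and dCIS taken alone. Entpd1 was the only one of the 10 genes with this pattern in all 3, while P2ry13 and P2rx4 had it in KO and dCIS and P2ry12 in WT and dCIS. Over the 24 libraries, the deviations of Entpd1 from its group means went with those of P2ry14 (Pearson r = 0.79), P2ry12 (0.79), P2rx4 (0.79), P2rx7 (0.79) and P2ry13 (0.76), and those of P2rx4 with P2ry14 (0.81). P2ry2 and P2ry6 went in opposite directions (r = -0.60), as did P2ry6 and Adora2a (-0.66). These are descriptions of libraries that share depth, culture and scaling, and the KO libraries numbered 2 are among them.

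**Figure D5:**
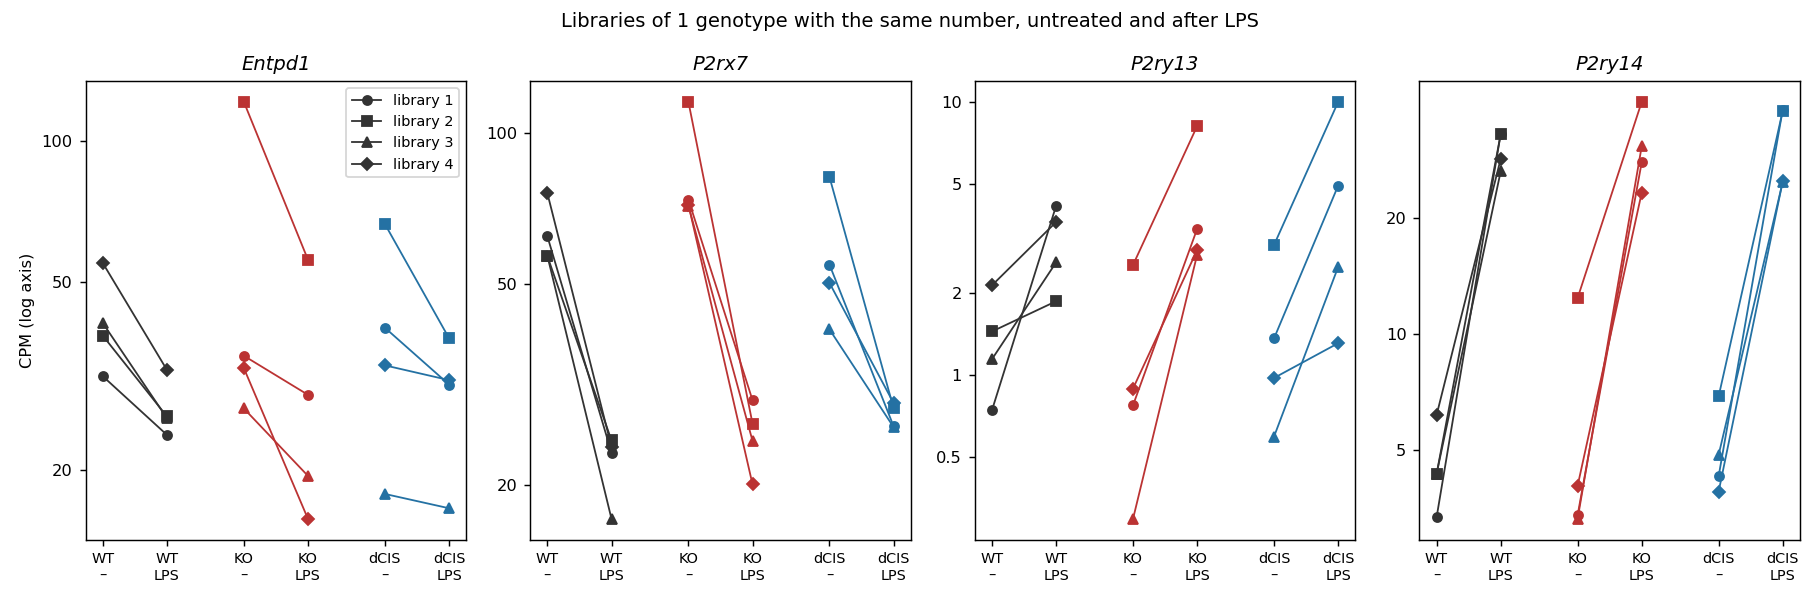
Level of Entpd1, P2rx7, P2ry13 and P2ry14 in CPM on a log axis, with a line joining libraries of the same genotype and number before and after LPS. Every Entpd1 line falls, and that of KO library 2 is the highest at both ends, from 121 to 55.9 CPM.

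For each gene averaging at least 5 CPM, the 3 most similar genes were found by Pearson r of log2(CPM + 0.5) over the 24 libraries among 8648 genes. The 12 untreated and 12 treated libraries are pooled, so the step between treatments enters every r. Adora2a was closest to Traf1 (r = 0.997), Ist1 (0.995) and Slc28a2 (0.994), and within the 12 LPS libraries its r with Slc28a2 was -0.33. Adora2b was closest to Junb (0.991), Zfp36 and Spop, and P2ry2 to Tnip1 (0.988), Mocs1 and Zc3h12a. P2ry14 was closest to Tmem140 (0.991), Ccng2 and Rftn1, and P2rx4 to Sat1 (0.977), Arl5c and Rftn1. P2rx7 was closest to Ddi2 (0.987), and r stayed at 0.987 in the untreated libraries alone and 0.78 in the LPS libraries; Zbtb38 and Ttyh3 came next. Entpd1 was closest to Slc9a9 (0.937), Sulf2 and Cyp27a1, with an r for Slc9a9 of 0.93 untreated and 0.92 after LPS. P2ry6 had no close match, the best being Erlec1 (0.765), Glmp and Galns.

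The rest of the pathway was read from lists of related genes. Their calls after LPS stand beside 61.4% of all genes called in WT, 61.6% in KO and 64.7% in dCIS. Of 11 further nucleotide and adenosine receptors, 4 passed the filter. In WT 2 of them were called higher and 2 lower after LPS, in KO 1 and 1, then 2 and 1 in dCIS. P2ry1, an ADP receptor, fell from 10.4 to 0.974 CPM in WT (log2 -3.41, adjusted p = 1.6e-08), P2rx1 fell from 0.59 to 0.119 CPM (log2 -2.24, adjusted p = 0.0117), and the adenosine receptor Adora3 rose from 0.305 to 1.55 CPM (log2 2.31, adjusted p = 0.000161). P2rx1 was not called in KO (log2 -0.72, adjusted p = 0.372) or dCIS (log2 -0.88, adjusted p = 0.263). In WT under TMM scaling P2ry1 thus fell while P2ry12, which shares its ligand, rose. On unscaled library totals the change of P2ry12 was not called (log2 0.38, adjusted p = 0.369). Its few reads also cannot be told apart from those of Med12l.

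Of 11 other ectonucleotidases 5 passed the filter, with 4 called higher and 0 lower in WT. The counts were 4 and 1 in KO, 4 and 0 in dCIS. Enpp4 rose from 1.21 to 101 CPM in WT (log2 6.37, adjusted p = 1.5e-19), and the NAD-consuming enzymes Cd38, from 6.67 to 169 CPM (log2 4.66), and Bst1, from 29.6 to 124 CPM (log2 2.06), rose as well. Nt5e, named here after its values were seen, was below the filter, at 0.0478 CPM in untreated WT and 0.0396 after LPS, with at most 4 reads in any library, so any change of this source of adenosine was not detectable at this depth. Of the 9 genes for release channels and transporters 7 passed, with 2 higher and 3 lower in WT, the same counts in KO, and 2 and 2 in dCIS. The volume-regulated channel subunit Lrrc8c (log2 3.83) and the connexin gene Gja1 (3.52) rose in WT, and Panx1, the pannexin channel that releases ATP, fell from 25.5 to 8.22 CPM (log2 -1.63).

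Of 11 genes for adenosine uptake and breakdown 8 passed, with 3 higher and 2 lower in WT. The counts were 2 and 3 in KO, 3 and 3 in dCIS. Pnp, which breaks down inosine, rose from 66.4 to 1284 CPM in WT (log2 4.27), though reads could be shared with its near copy Pnp2. The concentrative transporter Slc28a2 rose from 30.5 to 715 CPM (log2 4.55), and the equilibrative transporter Slc29a2 fell (log2 -2.90). All 20 genes for G proteins, cAMP and their regulators passed, with 7 higher and 8 lower in WT. The counts were 7 and 9 in KO, 8 and 8 in dCIS. The phosphodiesterase Pde4b (log2 3.55), the cAMP-responsive modulator Crem (2.08) and Gna13 (1.72) rose in WT. All 10 genes listed for the inflammasome and IL-1 beta release passed, with 9 higher and 1 lower in WT and KO and 8 and 1 in dCIS. Il18 (log2 4.75), Casp4 (3.76) and Casp1 (2.55) rose in WT, and the gene that fell was the potassium channel Kcnk6, from 42.1 to 13.5 CPM, in the same direction as P2rx7. The medians of these 6 lists in WT were -0.87 for receptors, 2.44 for ectonucleotidases, -0.10 for release, -0.16 for uptake, -0.06 for G proteins and 2.27 for inflammasome and IL-1 beta genes, beside 0.003 for all genes. In that order 100%, 80%, 71.4%, 62.5%, 75% and 100% of the tested list genes were called in WT, beside 61.4% of all genes. The lists were also chosen with earlier results of these data known, so these shares are descriptions only.

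Between untreated KO and WT, 1 of 5 ectonucleotidases, 1 of 8 uptake genes and 1 of 20 G protein and cAMP genes were called, where 7.31% of all genes were. Between untreated KO and dCIS, 4 of 20 G protein and cAMP genes were called, where 21.3% of all genes were. So was 1 gene each of 5 ectonucleotidases, 7 release genes, 8 uptake genes and 10 inflammasome and IL-1 beta genes. All of these were higher in KO. Untreated KO was above WT for the adenylate cyclase Adcy9 (log2 0.90, adjusted p = 0.0214), Enpp4 (0.85, adjusted p = 0.0291) and the lysosomal nucleoside transporter Slc29a3 (0.83, adjusted p = 0.0202), and after LPS for Creb1 (0.40, adjusted p = 0.027). Each of these 4 calls was lost when some single libraries were left out. For Adcy9 these were WT 1, 2 and 3 and KO 1 (adjusted p up to 0.0982), and for Enpp4 each of the 8 but KO 2 (up to 0.0941). For Slc29a3 they were WT 2 and 3 and KO 2 (up to 0.0831), and for Creb1 WT 1, 2 and 3 and KO 1 and 3 (up to 0.157). Untreated KO was above dCIS for Adcy9 (1.02, adjusted p = 0.00358) and Lrrc8c (0.53, adjusted p = 0.0108), as well as for the macrophage marker Adgre1 (0.61, adjusted p = 0.00666), which moved in the same direction as P2rx7 in that comparison; its part in that result was not tested. The call of Lrrc8c was lost without KO library 1 (adjusted p = 0.0593), without dCIS library 3 (adjusted p = 0.0547) and with the 2 groups fitted alone (adjusted p = 0.0859).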

How the data were processed

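Poly(A) RNA of 24 libraries of bone marrow-derived macrophages was measured. The authors deposited whole-number counts per gene, not normalized; STAR, edgeR and the build mm39 are named in the submitters' processing notes, without versions. The counting program and strand setting were not given in the sources used here. Of 56941 gene IDs, 51948 (91.2%) matched a symbol. Genes kept by edgeR's filter (minimum count 10, minimum total 15) entered 1 quasi-likelihood fit of all 24 libraries with a mean per group (edgeR 4.0.16, R 4.3.3, TMM scaling). P-values were adjusted by the Benjamini-Hochberg method across 14757 genes, 2-sided, called under 0.05. Gene models of GRCm38 were used for names, neighbours and promoters only.

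The members and lists were chosen with earlier results of these data known. Genes named beside the 10 were, per list, up to 3 called after LPS in WT with the smallest p and, in other comparisons, up to 3 over all lists; likewise the 3 genes most similar to each member and genes overlapping one. Kcnk6, Nt5e and P2ry10b were added after their values were seen. Counts of libraries in a group differed by more than sampling noise (lowest chi-square per degree of freedom 9.33), so none was taken as a duplicate. Same-numbered libraries deviated together from their group means in WT (r from 0.29 to 0.372 between untreated and LPS) and in KO (0.347 to 0.429). Differently numbered ones reached at most 0.1045 and 0.121, so the number pairs them there. Between KO and dCIS same-numbered r was 0.228 to 0.482 untreated and 0.107 to 0.299 after LPS. Differently numbered libraries reached 0.314 and 0.338, so the number does not single out pairs between these genotypes. Among untreated libraries, same-numbered r went down to -0.104 between WT and KO and to -0.276 between WT and dCIS. The replicate block gives each number 1 effect over all 3 genotypes, which these values do not bear out. In dCIS the lowest r was 0.0961, under the limit of 0.1, though differently numbered libraries reached at most 0.0676. Alternatives were RLE size factors, no filter, a filter of 1 CPM in 4 libraries, the replicate block, fits of only the groups compared, fits without single libraries, and DESeq2 (version 1.42.0). Unscaled totals and the removal of both dCIS libraries numbered 2 were added after seeing the data. In counts simulated for 24 libraries from each gene's overall mean, 200 genes with a mean of at least 1 CPM were changed in WT after LPS (14239 genes tested). The fit recovered 82% of 100 genes changed by 1 and 97% of 100 changed by 2 on the log2 scale. In the data 61.4% of genes were called in WT after LPS, so these rates do not give the sensitivity of the tests above.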

Additional observations from a re-analysis of the deposited data

Results flagged for a closer look

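In 9 of 60 sets of 4 libraries (10 genes in 6 groups) 1 library stood away from the other 3 by more than Dixon's 95% critical value of 0.829 for the gap over the range. Chance flags about 1 set in 20, and sets of different genes share libraries. Of the 9, 5 came from library 2 of untreated KO: Entpd1 at 121 CPM (next library 34.9), P2rx7 at 115 CPM (next 73.6), P2ry14 at 12.4 CPM (next 4.04) and P2ry12 at 3.34 CPM (next 1.08) were high, and P2ry2 at 14.8 CPM (next 22.3) was low. After LPS, KO library 2 had P2ry13 at 8.17 CPM (next 3.43), and KO library 4 had P2ry12 at 1.59 CPM (next 3.01). Untreated dCIS library 3 had Adora2a at 1.83 CPM (next 0.94), and untreated KO library 3 had Adora2b at 2.33 CPM (next 1.94).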

How the results depend on the processing

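Adora2a, Adora2b, P2ry2, P2ry14 and P2rx7 kept their direction and call after LPS in all 3 genotypes under each alternative and each removed library. On unscaled library totals, which leave the genes called higher at 17.8%, 17.7% and 19.1% of calls in WT, KO and dCIS, 7 values changed sign: P2rx4 to -0.26, -0.33 and -0.20 in WT, KO and dCIS, P2ry6 to -0.58 in WT and -0.50 in dCIS, P2ry12 to -0.046 in KO, and P2ry10b, a putative lysophospholipid receptor related to the P2Y family that rose by log2 0.50 in WT, to -0.31. Counts of the 10 genes called between genotypes moved as follows, with the calls over all genes in that setting in brackets. KO against WT untreated had 0, and 1 without the filter (1556). KO against WT after LPS had 0, and 1 in the compared groups alone (1995) and in DESeq2 (1080). KO against dCIS untreated had 1, and 2 without the filter (2992), 0 in the compared groups alone (1317) and 0 to 1 when single libraries were left out. KO against dCIS after LPS had 0, and 1 with the stricter filter (332), with the replicate block (751) and in DESeq2 (653). It also had 1 on unscaled totals (406) and without both dCIS libraries numbered 2 (1795), and 0 to 1 without single libraries. The cause of these changes was not tested.

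With the replicate block within each genotype, 10, 9 and 10 of the 10 genes were called after LPS in WT, KO and dCIS, against 8, 7 and 9. Over all 14757 genes the block called 9548, 9590 and 9995, against 9055, 9085 and 9547. In dCIS, whose numbers do not pair by the rule used, the block called Entpd1 lower (log2 -0.37, adjusted p = 0.0179). The block changed no call of the 10 genes other than these, those given with P2ry12, P2ry13 and Entpd1, and P2ry6 between KO and dCIS. Over all genes, calls between genotypes ranged widely over the alternatives: from 1000 to 2351 for KO against WT untreated (1079 as reported), 322 to 1995 after LPS (405), 7 to 80 for dCIS against WT untreated (8), 6 to 277 after LPS (38), 1317 to 4642 for KO against dCIS untreated (3147) and 62 to 1795 after LPS (322). The response differed from WT for 3 to 12 genes in KO (3) and 0 to 35 in dCIS (0). P2ry12 and P2ry13 had 6 to 122 reads a library; the part of depth in their spread was not tested.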
